A study of Mus musculus with 8 samples.

Results

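The ErbB genes comprised 3 receptors, 6 ligands and 1 intracellular inhibitor, chosen by gene symbol from the deposited table, and all 10 were among its 18770 genes. Dorsal skin of wildtype C57BL/6 male mice (C57BL/6J in the paper) was depilated and sampled at day 4 (D4). The mice were 7 to 8 weeks old per the labels. The AP group (n = 4) was treated topically each day, from 24 h after depilation, with alpinetin, a plant flavonoid (20 µl at 3 mg/ml, dissolved in 65% ethanol). The vehicle control (VC) group (n = 4) was given the 65% ethanol alone. The tissue was dermis with hair follicles, from which interfollicular epidermal keratinocytes had been removed before the mRNA was sequenced. The comparison asked which transcripts differed between AP-treated and vehicle-treated skin at D4. A figure legend of the paper gives 4 mice per group for these data, which the labels do not state, and p-values measure the spread between these libraries.

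ErbB receptors are tyrosine kinases of the cell surface that pair when a ligand binds and signal through the Ras-MAPK and PI3K pathways. Their ligands are made as membrane proteins and released by ADAM proteases. In skin the family is known for its part in keratinocyte growth, wound closure and the hair cycle.

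Values are normalized counts, that is, reads divided by a size factor per library. The VC libraries held 7264151, 6833615, 6479827 and 6454563 reads, and the AP libraries 8507783, 10853773, 11190113 and 8863517. Mitochondrially encoded genes took 54.3%, 44.9%, 42.1% and 52.3% of VC reads, in library order, but 11.1%, 7.85%, 5.32% and 10.3% of AP reads. The groups did not overlap in this share (exact two-sided permutation test, p = 0.0286, the smallest that 4 against 4 libraries can give). Without these genes the VC libraries held 3080758 to 3762217 reads and the AP libraries 7561598 to 10594787, so low transcripts were measured less precisely in the VC group. With every library thinned to the same number of reads without mitochondrial genes, the same 4 ErbB genes as below were called higher (limma, median log2 fold change of the 10 genes 1.84). AP.1 stood apart from the other AP libraries in skeletal muscle markers. The summed normalized counts of 7 such genes were 41808, 64726, 32080 and 33409 in the VC group and 65704, 8292, 4949 and 10548 in the AP group. Without AP.1, 4 ErbB genes were called higher (Erbb3, Tgfa, Areg and Epgn).

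Of the 10 ErbB genes, 4 were higher in the AP group at an adjusted p under 0.05 (Erbb3, Tgfa, Areg and Btc), against 6.33% of the 15964 genes tested across the table (limma with Benjamini-Hochberg adjustment over all genes). None of the 10 was lower, against 4.0% of all genes. The count fell to 0 without AP.3 or without AP.4. It rose to 10 with scaling by total reads, which called 8670 genes higher and 65 lower across the table, beside 1011 and 639 in the main fit. Whether the deposited scaling holds, given the mitochondrial share of the VC libraries, was not tested. At an unadjusted p under 0.05, 9 of the 10 were higher, against 17% of all genes, and none lower, against 13.3%. The median log2 fold change of the 10 genes, AP over VC on the log2(normalized count + 1) scale, was 1.94, beside 0.06 for all genes tested. It was 1.30 without VC.1, and 0.67 relative to basal keratinocyte markers, a scale on which the median of all genes was -1.21. All 10 passed the filter on low values (3 normalized counts or more, reached by 4 or more of the 8 libraries), but Btc reached that value in 1 VC library, Areg in 2 and Ereg and Hbegf in 3 each, so the place of these 4 among the genes tested rests on the AP group, where each reached it in 4 libraries. Of the other 6, which reached it in all 8 libraries, 2 were higher (Erbb3 and Tgfa), against 6.54% of all such genes, and their median log2 fold change was 0.99. These are bulk samples, so a higher share of cells that express a gene and more RNA per cell cannot be told apart.

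**Figure D1:**
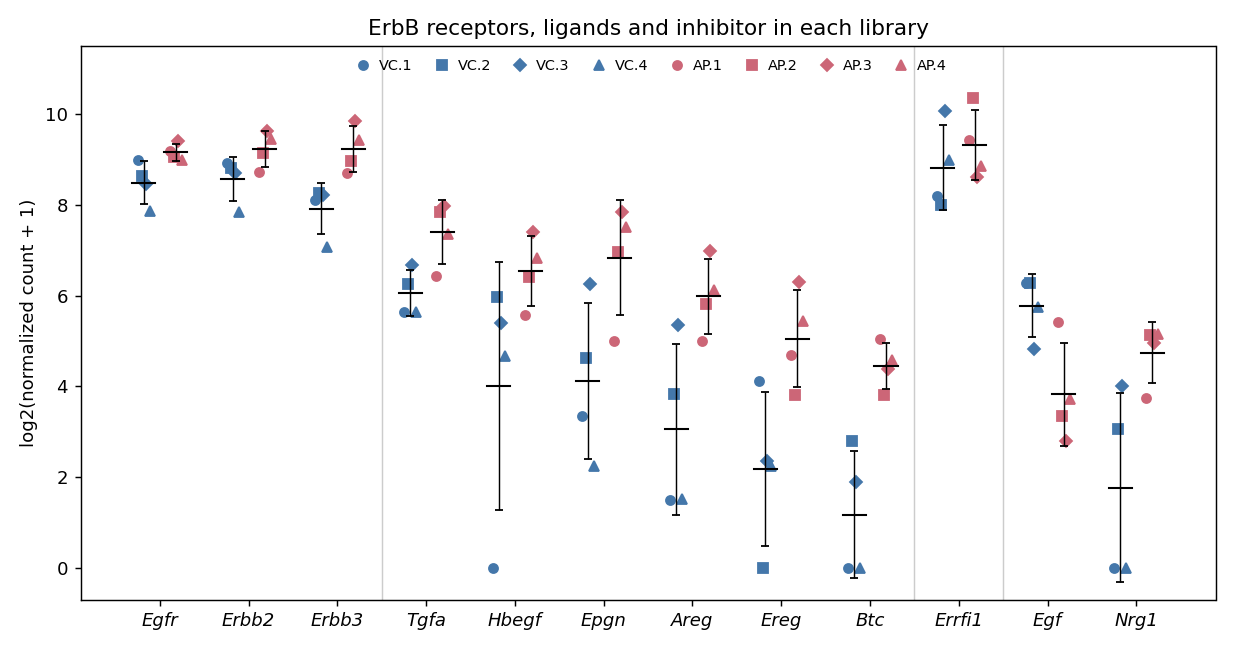
Each point is a library's log2(normalized count + 1) for a gene (4 VC libraries in blue, 4 AP libraries in red, symbol by library), with the mean as a bar and the SD as whiskers. Only Erbb3 and Btc among the 10 ErbB genes had every AP library above every VC library; Egf and Nrg1 are shown for comparison.

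Among the receptors, Erbb3, the kinase-impaired partner that binds neuregulins, changed most (chromosome 10, bases 128567523 to 128589652, mm10). In library order, its normalized counts were 276, 306, 296 and 133 for VC.1 to VC.4 and 413, 496, 918 and 692 for AP.1 to AP.4. Every AP library lay above every VC library, and AP.3 and AP.4 were the high ones. The mean rose from 253 ± 80.8 to 629 ± 225 (SD over 4 libraries), and on the log2 scale the fold change was 1.32 (SE 0.31, limma adjusted p = 0.0253). Every AP library was above every VC library for 2 of the 10 ErbB genes and 10.3% of all genes tested, and below for 0 of the 10 and 8.91% of all. The call was lost without AP.3 (limma adjusted p = 0.0837) or without AP.4 (limma adjusted p = 0.0743) and kept in the other 6 fits that left out 1 library. It was also lost without the intensity trend (0.0719).

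Egfr, the receptor of the Egf-type ligands (chromosome 11, bases 16752203 to 16918158), was at 506, 398, 352 and 231 in the VC group and at 583, 529, 677 and 504 in the AP group. The ranges met only at their edges, with AP.4 just below VC.1. The log2 fold change was 0.67 (SE 0.22, limma adjusted p = 0.0734), which did not pass the threshold, but did without VC.1 (limma adjusted p = 0.0499). It was 0.17 (limma adjusted p = 0.673) without each library's trend on transcript length, a fit added once the data had been seen. Erbb2, which has no known ligand and serves as the preferred partner of the other receptors (chromosome 11, bases 98412470 to 98437716), was at 484, 448, 412 and 229 in the VC group and at 420, 563, 787 and 702 in the AP group. AP.1 lay among the VC libraries and AP.2 to AP.4 above them. For Erbb2 the log2 fold change was 0.67 (SE 0.26, limma adjusted p = 0.115). VC.4 was the lowest VC library for all 3 receptors and AP.3 the highest AP library. Erbb4 was not analysed here.

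Of the ligands, Tgfa, a ligand of Egfr made by keratinocytes (chromosome 6, bases 86195223 to 86275719), was at 49.1, 75.4, 101 and 48.8 normalized counts in the VC group. It was at 84.9, 230, 250 and 162 in the AP group. Only AP.1 fell within the VC range, below VC.3. Tgfa had a log2 fold change of 1.35 (SE 0.37, limma adjusted p = 0.0412). The call held without VC.3 or without AP.1 and was lost without any other single library, with limma adjusted p-values of 0.0557 to 0.131 in those 6 fits. It was also lost with limma-voom (0.0854), without the intensity trend (0.0847) and with total counts without mitochondrial genes (0.0507).

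Areg encodes amphiregulin, an Egfr ligand known as an autocrine growth factor of keratinocytes. It was at 1.82, 13.3, 39.6 and 1.88 in the VC group and at 31.2, 55.0, 126 and 68.7 in the AP group. AP.1 again lay below VC.3, and VC.1 and VC.4 each held 1 read. Areg had a log2 fold change of 2.93 (SE 0.82, limma adjusted p = 0.0441). As for Tgfa, of the 8 fits with 1 library left out the call held only without VC.3 or without AP.1. The adjusted p-values in the other 6 limma fits with 1 library left out were 0.0514 to 0.137. It was also lost with edgeR (0.0694), limma-voom (0.0806), no intensity trend (0.0892), no filter (0.0517) and total counts without mitochondrial genes (0.0527).

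Btc encodes betacellulin, which binds Egfr and Erbb4. It was at 0, 5.91, 2.73 and 0 in the VC group and at 31.9, 12.9, 19.9 and 22.9 in the AP group. Every AP library was above every VC library. These values rest on 0, 4, 2 and 0 reads in the VC libraries and on 44, 24, 40 and 32 in the AP libraries, and a count of 0 in VC.1 or VC.4 allows up to 5.46 or 5.63 normalized counts (3 reads, counting error only). Btc had a log2 fold change of 3.28 (SE 0.75, limma adjusted p = 0.0242), a value that depends on the pseudocount at such low counts (1.94 with a pseudocount of 5). It was no longer called without AP.1, AP.2, AP.3 or AP.4, with limma adjusted p-values of 0.0518, 0.0588, 0.0876 and 0.0811.

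The other 3 ligands were not called. Epgn (epigen) was at 9.10, 23.6, 75.1 and 3.75 in the VC group and at 31.2, 123, 227 and 182 in the AP group, with AP.1 inside the VC range. Its log2 fold change was 2.71 (SE 0.82, limma adjusted p = 0.0555), and it was called without VC.3 (limma adjusted p = 0.0286) or without AP.1 (limma adjusted p = 0.0220). Epgn was also called with DESeq2 (adjusted p = 0.0144), and by limma with a pseudocount of 5 (0.0476) or scaling by total reads (0.0062). Without VC.4 its log2 fold change was 2.09. Ereg (epiregulin, which binds Egfr and Erbb4) was at 16.4, 0, 4.10 and 3.75 in the VC group and at 24.7, 12.9, 77.2 and 42.2 in the AP group.

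AP.2 was the one AP library within the VC range of Ereg, below VC.1. The log2 fold change of Ereg was 2.87 (SE 0.84, limma adjusted p = 0.0507), and it was called without VC.1 (limma adjusted p = 0.0340). Ereg was also called with DESeq2 (adjusted p = 0.0086), and by limma with a pseudocount of 5 (0.0377) or scaling by total reads (0.0033). VC.2 held no read of Ereg, which allows up to 4.43 normalized counts. The log2 fold change of Ereg was 2.15 without VC.2 and 1.98 with a pseudocount of 5. An antisense gene, Gm19610, overlaps the start of Ereg, and whether counting used strand is not given in the sources used here. Gm19610 held at most 12 reads in any library.

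Hbegf, the heparin-binding ligand of Egfr and Erbb4, was at 0, 62.1, 41.0 and 24.4 in the VC group and at 46.4, 83.6, 167 and 113 in the AP group. AP.1 lay below VC.2, and VC.1 held no read, which allows up to 5.46 normalized counts. For Hbegf the log2 fold change was 2.54 (SE 1.06, limma adjusted p = 0.134) and 1.20 without VC.1 (limma adjusted p = 0.126).

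Of the ligands outside the 10 genes, none of the 4 tested was called in the main fit. Egf, the founding ligand of the family, was at 76.4, 76.8, 27.3 and 52.5 in the VC group and at 42.1, 9.17, 5.98 and 12.2 in the AP group. AP.1 was within the VC range and the other AP libraries below it. Its log2 fold change was -1.96 (SE 0.58, limma adjusted p = 0.0519), and Egf was called lower without VC.3 (limma adjusted p = 0.0431) or without AP.1 (limma adjusted p = 0.0130). It was also called lower with DESeq2 (0.0263), limma-voom (0.0420), a pseudocount of 5 (0.0455) and upper-quartile scaling (0.0497). Relative to basal keratinocyte markers Egf was called lower too (log2 fold change -3.23, limma adjusted p = 0.00077). On that scale 40.7% of all genes were lower and their median was -1.21. Among the fits without a call were edgeR (0.0776), equal depth without mitochondrial reads (limma, 0.0760) and scaling by total reads (log2 fold change -1.13, limma adjusted p = 0.103).

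Nrg1, a neuregulin that binds Erbb3 and Erbb4, was at 0, 7.39, 15.02 and 0 in the VC group and at 12.3, 34.0, 29.9 and 34.3 in the AP group. AP.1 lay below VC.3 and the other AP libraries above the VC range. The log2 fold change of Nrg1 was 2.97 (SE 0.92, limma adjusted p = 0.0595), called without VC.3 (limma adjusted p = 0.0329), with DESeq2 (0.0350), a pseudocount of 5 (0.0402) and scaling by total reads (0.0068). The 0 counts of Nrg1 in VC.1 and VC.4 allow up to 5.46 and 5.63 normalized counts. Its log2 fold change thus depends on the pseudocount (1.81 with a pseudocount of 5 and 3.48 with 0.5). Nrg2 (log2 fold change 0.61, limma adjusted p = 0.361) and Nrg4 (-0.27, limma adjusted p = 0.532) did not pass the threshold. Scaling by total reads called Nrg2 higher (1.45, limma adjusted p = 0.0281) and turned Nrg4 to 0.60, while relative to basal markers Nrg4 was called lower (-1.54, limma adjusted p = 0.0222), as were 40.7% of all genes. Nrg3 was not analysed here.

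Errfi1 encodes an intracellular inhibitor that binds the kinase domain of ErbB receptors and is itself induced by their signalling (chromosome 4, bases 150853919 to 150868892). It was at 293, 256, 1077 and 506 in the VC group and at 690, 1310.2, 390 and 462 in the AP group. VC.3 and AP.2 were the high libraries, and the groups overlapped over most of their range. Its log2 fold change was 0.50 (SE 0.46, 95% interval -0.51 to 1.501, limma adjusted p = 0.491). Its order among libraries differed from that of the ligands and receptors, since AP.3 was its lowest AP library.

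Across the 10 genes, AP.3 was the highest AP library for 8 and AP.1 the lowest for 6. In the VC group, VC.4 alone was the lowest library for 5 genes and VC.3 the highest for 4. For Btc, VC.1 and VC.4 were both at 0. For the 6 ligands AP.3 was highest for 5, all except Btc, for which AP.1 was highest. Without AP.3 and AP.4, an alternative chosen after seeing the data, 0 of the 9 ErbB genes then tested were called, beside 20 genes higher and 10 lower across the whole table, and Btc no longer passed the filter.

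Levels of different genes were compared per kilobase of the longest annotated transcript. In the VC group the order of mean levels was Errfi1 (175 ± 125 normalized counts per kb, SD, n = 4), Erbb2 (78.4 ± 22.6), Erbb3 (42.0 ± 13.4), Egfr (36.4 ± 11.2), Epgn (15.9 ± 18.5), Tgfa (15.1 ± 5.52), Areg (11.6 ± 14.7), Hbegf (11.0 ± 9.08), Ereg (1.47 ± 1.73) and Btc (0.537 ± 0.698). In the AP group it was Errfi1 (234 ± 137), Erbb2 (123 ± 32.1), Erbb3 (105 ± 37.4), Epgn (80.1 ± 48.1), Areg (57.7 ± 33.0), Egfr (56.2 ± 7.50), Tgfa (40.1 ± 16.5), Hbegf (35.5 ± 17.6), Ereg (9.51 ± 6.79) and Btc (5.44 ± 1.95). Neighbours in either order had overlapping ranges over the libraries of a group, which does not compare genes within a library. Erbb2 lay above Erbb3 in every library, by most in VC.1 (96.5 against 46.0 per kb) and by least in AP.3 (157 against 153).

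The 7 Egf-type ligands, Egf included, summed to 37.5, 80.1, 119 and 34.8 normalized counts per kb over the VC libraries. Over the AP libraries they summed to 101, 203, 370.3 and 254. AP.1 was below VC.3 and the other AP libraries were above the VC group. The 3 receptors summed to 192, 179, 166 and 90.4 per kb in the VC group and to 209.5, 247, 376 and 304.5 in the AP group, with no overlap. Egf made up 24.8% ± 16.2 of the VC ligand sum but 2.76% ± 4.01 of the AP sum. Epgn (31.9% ± 10.02) and Areg (24.5% ± 2.72) had the largest mean shares of the AP sum. Their VC shares were 18.1% ± 12.6 and 12.4% ± 10.9. In AP.1, Epgn was at 17.6%, below Areg (25.4%) and Tgfa (18.6%). Erbb3 made up 26.6% ± 2.84 of the VC receptor sum and 36.1% ± 3.72 of the AP sum. These shares are descriptions and carry no test.

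Many keratinocyte markers were also higher in the AP group. Of 10 basal keratinocyte markers, 6 were higher and 0 lower in the AP group (limma, median log2 fold change 1.09), against 6.33% and 4.0% of all genes. Their summed normalized counts were 24950.3, 79786, 48303 and 22519 for the VC libraries, against 50860.1, 54315, 97711 and 141553 for the AP libraries. In these sums VC.2 stood within the AP range, and AP.3 and AP.4 were the high AP libraries, as for Erbb3. AP.4 was the highest AP library here, whereas AP.3 was highest for 8 of the 10 ErbB genes. In the mean log2 level of the basal list the groups did not overlap, but only barely (10.5288 in VC.2, 10.5293 in AP.1).

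The most abundant basal marker was Krt14, which with its partner Krt5 builds the filaments of basal cells. Krt14 (log2 fold change 1.02, limma adjusted p = 0.212) and Krt5 (0.94, limma adjusted p = 0.196) were not called. Of 15 suprabasal markers, 14 were higher (limma, median log2 fold change 3.0), against 6.33% of all genes. The suprabasal sums were 6387, 13313, 9271 and 5891 for the VC libraries and 45919, 42516, 127109 and 176265 for the AP libraries, with no overlap.

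Krt10, the most abundant suprabasal marker, had a log2 fold change of 3.85 (SE 0.50, limma adjusted p = 0.0037) and Krt1 one of 3.46 (SE 0.54, limma adjusted p = 0.0084). No marker of these lists was at 0 in every library, which held for the listed genes of all other lists too. Of 7 wound keratinocyte markers, 4 were higher (limma, median log2 fold change 2.10), against 6.33% of all genes, and the most abundant, Krt17, was not called (0.56, limma adjusted p = 0.231). The part of these cells in the ErbB differences was not tested.

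The ErbB genes were also set against the mean log2 level of the basal markers in the same library. On that scale the log2 fold changes were -0.60 for Egfr, -0.60 for Erbb2, 0.05 for Erbb3, 0.08 for Tgfa and -0.77 for Errfi1. Those of the other 5 ligands were 1.27 for Hbegf, 1.44 for Epgn, 1.60 for Ereg, 1.66 for Areg and 2.01 for Btc. None of the 10 passed the threshold on this scale, against 0.677% of all genes higher and 40.7% lower, and the median of all genes was -1.21. Areg came nearest (limma adjusted p = 0.0545, with a range of 0.0047 to 0.352 over all of its alternatives). This reference took the same amount from all genes of a library, so every log2 fold change fell by 1.27. That Egfr, Erbb2 and Errfi1 turned thus followed from the size of their fold changes in the main fit. Their direction did not turn with the scalings by TMM, upper quartile or total reads.

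**Figure D2:**
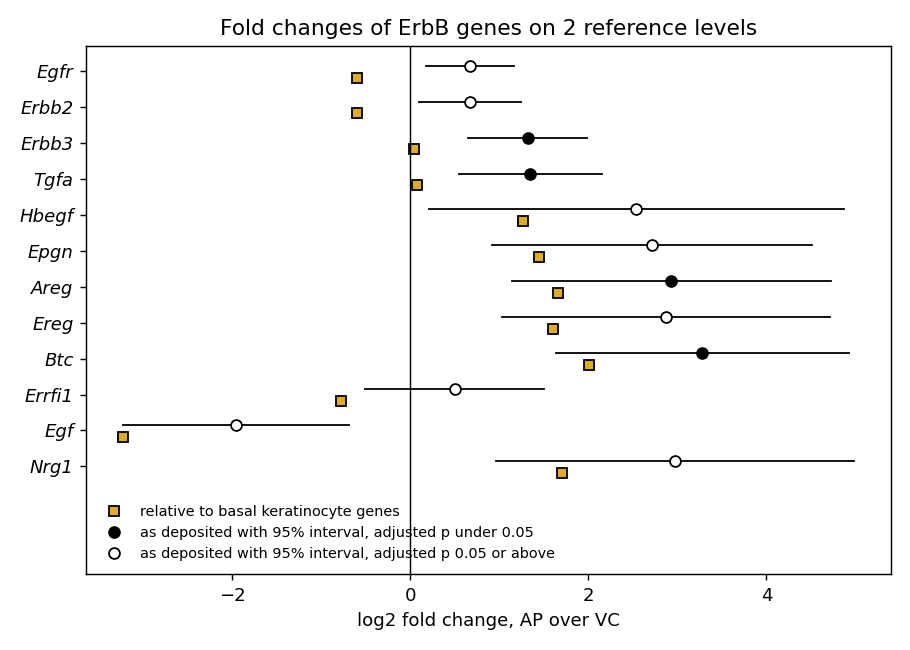
Log2 fold changes, AP over VC, with 95% intervals for the deposited scaling (circles, filled at a limma adjusted p under 0.05) and relative to the basal keratinocyte markers of each library (squares). Every gene is lower by the same 1.27 on the second scale. Egfr, Erbb2 and Errfi1 therefore change sign, and Areg, Btc, Epgn, Ereg and Hbegf, the largest in the main fit, stay above 1 on both.

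Genes that process the ligands or restrain the receptors were read from the same limma fit, and their counts stand beside 6.33% of all genes higher and 4.0% lower. Of 8 shedding genes, 2 were higher and 0 lower (median log2 fold change 0.55). Adam17, the main sheddase of Areg, Ereg, Hbegf and Tgfa, was at 280.1, 297, 304.5 and 294 in the VC group and at 429, 454, 508 and 519 in the AP group. All AP libraries lay above a narrow VC range, and the log2 fold change was 0.69 (SE 0.14, limma adjusted p = 0.0174), lost without AP.3 (0.0707) or AP.4 (0.0594). Adam9 (0.66, limma adjusted p = 0.0498) was also called, though in only 1 of the 8 fits with a library left out and not with the length trend removed (0.107), and Adam10, the most abundant of the list, was not (0.56, limma adjusted p = 0.0586).

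Of 14 genes of receptor restraint and turnover, 4 were higher and 0 lower (median log2 fold change 0.38). Lrig1, a membrane protein that promotes ErbB receptor degradation and the most abundant of the list, was at 273, 464, 390.5 and 362 in the VC group and at 769.5, 762, 975 and 714 in the AP group. The groups were far apart, and its log2 fold change of 1.13 (SE 0.18, limma adjusted p = 0.0090) was called in all 8 fits with 1 library left out. Lrig3 (1.32), the receptor phosphatase gene Ptprj (1.18) and Cbl (0.995), which encodes a ubiquitin ligase of activated receptors, were the others. Cbl was called in all 8 such fits too, but not with the trend on transcript length removed (0.45, limma adjusted p = 0.119). Lrig3 was lost without AP.3 (limma adjusted p = 0.0790), without AP.4 (0.0581) or without the intensity trend (0.0585). Ptprj was lost without AP.2 (limma adjusted p = 0.0565), without AP.4 (0.0520) or with the trend on transcript length removed (0.0636).

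Of 10 PI3K, STAT3 and PLC genes, 1 was higher, a share near the 6.33% of all genes. It was Pdpk1 (log2 fold change 0.96, limma adjusted p = 0.0166). None was lower (median 0.08), and Akt1, the most abundant, had a log2 fold change of -0.29 (limma adjusted p = 0.263). The call of Pdpk1 was lost without AP.2, AP.3 or AP.4 (limma adjusted p = 0.0501 to 0.0627) or with the length trend removed (0.0668).

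Of 17 ERK targets and feedback genes, 3 were higher, against 6.33% of all genes, and 0 lower (median log2 fold change 0.65). They were the immediate early genes Fos, Egr1 and Ier2, which many stimuli induce. Fos, the most abundant of the list, was at 287, 269, 468 and 317 in the VC group and at 2384, 1615, 2089.6 and 1728 in the AP group. All AP libraries were several times above the VC libraries, with a log2 fold change of 2.56 (SE 0.20, limma adjusted p = 0.00063). Egr1 (1.86) and Ier2 (0.95) were also called in all 8 fits with 1 library left out. The Dusp, Spry and Spred feedback genes and Myc, Etv4 and Etv5 did not pass the threshold. Relative to the basal markers, Fos alone of the called genes named from these lists passed it.

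Markers of other cells were read against the same shares of all genes, 6.33% higher and 4.0% lower. Endothelial markers were higher for 2 of 5 genes (median log2 fold change 1.44, most abundant Pecam1). A single gene was higher among 10 hair matrix, inner root sheath and shaft markers (0.35, Krt71), 9 leukocyte markers (-0.50, Lyz2) and 5 red blood cell markers (0.94, Hbb-bs). This gives these lists no direction, and 0 were lower in all 4 lists. Lower were 3 of 6 dermal papilla markers (median -1.41, Crabp1), 3 of 5 melanocyte markers (-1.35, Dct), 2 of 4 Schwann cell markers (-0.71, Mbp) and 2 of 4 mast cell markers (-1.05, Mcpt4), with 0 higher. No call was made among 8 hair follicle stem cell markers (0.27, Krt15), 8 sebaceous gland markers (-0.03, Scd1), 8 fibroblast markers (0.49, Col1a1), 7 adipocyte markers (0.28, Fabp4) and 7 skeletal muscle markers (-1.55, Acta1). Their part in the ErbB values was not tested.

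**Figure D3:**
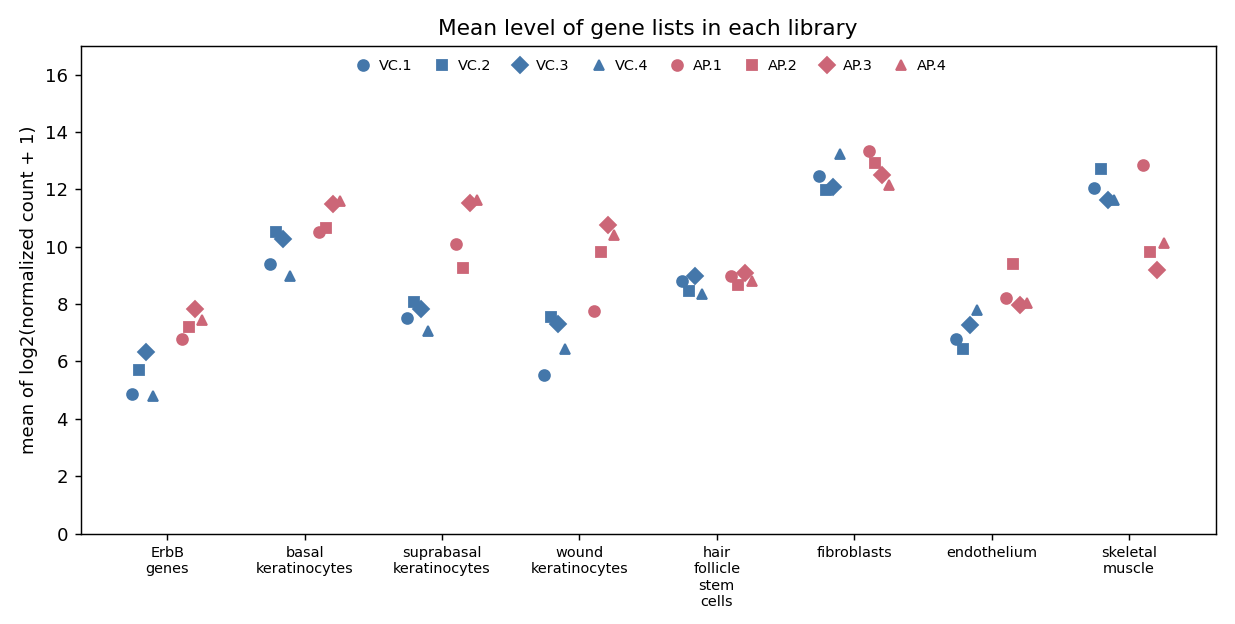
Mean of log2(normalized count + 1) over the genes of each list, with a point for each of the 4 VC (blue) and 4 AP (red) libraries. The suprabasal list separates the groups, with AP.3 and AP.4 highest. The ErbB, wound keratinocyte and endothelium lists also separate them, and the basal list barely does (10.5288 in VC.2, 10.5293 in AP.1). Fibroblast, hair follicle stem cell and skeletal muscle lists overlap between groups.

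Among the 10 genes, 4 ligand genes lay close together on chromosome 5 (mm10): Epgn at 91027464 to 91035215, Ereg at 91074622 to 91093646 and Areg at 91139599 to 91148432 on the plus strand, and Btc at 91357261 to 91402994 on the minus strand. They span 376 kb. Within 500 kb on either side, 12 genes were tested. Among the 8 that are not ErbB genes, 3 were called higher in the AP group and 0 lower, against 6.33% and 4.0% of all genes. They were the neutrophil chemokine genes Cxcl1 (log2 fold change 3.64, limma adjusted p = 0.0275) and Cxcl2 (2.94, limma adjusted p = 0.0312), and Parm1 (1.06, limma adjusted p = 0.0487). Cxcl3 (0.16, limma adjusted p = 0.936) and Cxcl5 (0.24, limma adjusted p = 0.893), also neutrophil chemokine genes, were not called. The VC values rest on few reads, 0, 0, 13 and 1 of Cxcl1 and 0, 7, 2 and 4 of Cxcl2, and these 2 genes reached the filter's minimum in 1 and 2 VC libraries, so their place among the genes tested rests on the AP group. Mthfd2l, between Cxcl2 and Epgn, had a log2 fold change of -0.48 (limma adjusted p = 0.238). These neighbours were named after their values were seen.

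RefSeq promoter windows (GRCm38.p6, 300 bases, 250 before to 50 after a gene's start) were found for 7 of the 10 genes, in 8 windows. They were searched on both strands for 4 motifs. The cAMP response element TGACGTCA was in the window of Areg and in 1 of 2 windows of Errfi1, and in 1.79% of all 32851 windows. The AP-1 motif TGANTCA was in none of the 8 windows and in 7.81% of all. The TEAD motif GGAATG was in windows of Erbb2 and Errfi1 (14.7% of all), and the SP1 motif GGGCGG in windows of Areg, Egfr, Errfi1 and Tgfa (35.7% of all).

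The stretches around the cAMP response element are shown for Areg, which was called, and Errfi1, which was not. Whether the element has a part in either value was not tested. Capitals mark the element, which begins 61 bases before the RefSeq start of Areg. In Errfi1 it begins 51 bases before the second of 2 RefSeq starts, which is downstream of the gene's first base given above. Both stretches are on the plus strand, outside the annotated exons of their gene. That of Areg is chr5:91139498-91139585 and that of Errfi1 chr4:150854979-150855066.
Areg: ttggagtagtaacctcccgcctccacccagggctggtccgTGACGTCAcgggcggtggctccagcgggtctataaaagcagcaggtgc
Errfi1: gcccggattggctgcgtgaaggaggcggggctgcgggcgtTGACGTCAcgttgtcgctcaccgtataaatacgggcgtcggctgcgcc
A match describes these letters only. In Areg an SP1 motif begins 52 bases before the start, next to the element.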

How the data were processed

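Messenger RNA of 8 skin samples (4 VC, 4 AP) was enriched with oligo-dT and sequenced on an Illumina NovaSeq. The authors mapped the reads with STAR (mm10). For counting, the paper's methods name featureCounts and the submitters' processing notes HTSeq. The deposited signal values are DESeq2-normalized counts, each library scaled by its own size factor. All 150160 values were whole multiples of 1 step per library (tolerance 0.01 read), so reads were recovered. The table's columns of the authors' own comparison (mean, fold change, standard error, statistic, p-value and adjusted p-value) were not used. Library columns are numbered differently from the samples, so no library was tied to a sample.

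log2(normalized count + 1) values were fitted with limma 3.58.1 (R 4.3.3) with an intensity trend, over genes that reached 3 normalized counts in 4 or more of 8 libraries, and adjusted by Benjamini-Hochberg over all of them. Single values were compared by exact permutation of the 70 assignments in scipy 1.17.1. Alternatives used edgeR 4.0.16, DESeq2 1.42.0 and limma-voom on recovered reads, other pseudocounts, filters, scalings and depths, a basal keratinocyte reference, and each library left out. edgeR called 1003 genes higher and 712 lower. The scripts were tested on simulated data. No 2 libraries of a group agreed within sampling noise (chi-square per degree of freedom 14.7 to 74.2). That covers counting noise only and cannot show that the libraries came from separate mice. Each was counted as 1 sample, given the number of mice in the paper's figure legend. Coordinates and transcript lengths came from GENCODE M21, with 18766 of 18770 genes matched, and promoters from RefSeq. Named were the 10 genes, Egf and the neuregulins, from each gene list the called genes (at most 5) and the most abundant, and from each marker list the most abundant, any at 0, and Krt5, Krt14, Krt1 and Krt10. One planned gene list is not reported. The members and lists were chosen with earlier results of these data known.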

Additional observations from a re-analysis of the deposited data

Results flagged for a closer look

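Of 34 checks of a gene or list level within a group, 2 had a library far from the others, and chance alone gives about 1 in 20. Erbb3 was at 133 normalized counts in VC.4, against 276 to 306 in the other VC libraries. VC.4 was also the lowest VC library for Egfr and Erbb2. Without it the log2 fold change of Erbb3 was 1.03 and the limma adjusted p was 0.0400, with a range of 0.00104 to 0.942 over all alternatives. Nrg2 was at 75.1 in VC.3, against 20.01 to 26.6 in the other VC libraries, and without VC.3 its log2 fold change was 1.02 (limma adjusted p = 0.0811, range over all alternatives 0.0281 to 0.792).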

How the results depend on the processing

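Btc had 0 to 4 reads in each VC library. Over 24 alternatives per gene (23 for Btc, which could not be tested without AP.3 and AP.4), the 10 log2 fold changes kept direction and side of the threshold in 186 fits, lost the call in 36, gained one in 14 and turned in 3. The 3 were relative to basal keratinocyte genes: Egfr (-0.60), Erbb2 (-0.60) and Errfi1 (-0.77). That reference lowers the log2 fold change of every gene by the same 1.27. The cause of the difference in basal markers was not tested.

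The ErbB genes called higher numbered 4, and 6 with DESeq2, 3 with edgeR, 2 with limma-voom, 6 with a pseudocount of 5, 6 at the study's cutoffs applied to limma in place of DESeq2 (fold change over 1.5, unadjusted p under 0.01), 3 without the filter, 1 without the intensity trend, 10 with total-count scaling, 2 with total counts without mitochondrial genes, 4 at equal depth without mitochondrial reads, and 0 relative to basal keratinocyte genes. Leaving out 1 library gave 0 (without AP.3 or AP.4) to 5 (without VC.3). Their median of 1.94 became 2.74 with total-count scaling, which moves the median of all genes to 0.90, and 0.67 relative to basal genes, which moves it to -1.21. With 1 library left out it was 1.30 to 2.27.

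Across the table, 1011 genes were higher and 639 lower. DESeq2 gave 1677 and 1362, limma without the trend 376 and 216, and total-count scaling 8670 and 65. Upper-quartile scaling gave 923 and 837, and the study's cutoffs on limma 1319 and 850. With 1 library left out, 211 to 1061 were higher and 96 to 812 lower.

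Of the alternatives chosen after seeing the data, leaving out AP.3 and AP.4 gave 20 genes higher and 10 lower, 0 ErbB genes and a median of 1.08 over the 9 genes without Btc, which is 1.35 in the main fit, with fewer samples. Removing each library's trend on transcript length gave 576 genes higher and 516 lower, beside 1011 and 639 in the main fit. It called 2 ErbB genes (Areg and Btc), with Erbb3 at 0.99 (limma adjusted p = 0.0689), Tgfa at 1.16 (limma adjusted p = 0.0664) and Egfr at 0.17 (limma adjusted p = 0.673). The protein domain comparison was not run. No paired analysis was possible because the groups share no replicate numbers in the labels.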
